A study of Mus musculus with 4 samples.

Results

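The granule protease inhibitors and processing factors considered here are the genes Ctla2a, Ctla2b, Serpinb9, Serpinb6a, Serpinb6b, Serpinb1a, Srgn, Ctsc and Ctsw. An accessible region was counted for one of these 9 genes when no other protein-coding gene had its span closer to it, with ties going to the nearer gene end. That gave 54 of the 91266 regions found in the series. The regions came from ATAC-seq, in which a transposase cuts open chromatin and tags it for sequencing. Wild-type C57BL/6 natural killer (NK) cells of the mouse spleen were cultured for 72 h in a high dose (HD, 2 samples) or a low dose (LD, 2 samples) of interleukin-15 (IL-15), a cytokine that NK cells need to survive. All 4 samples thus had the same genotype and culture time, each from about 75000 cells, and the concentrations of IL-15 are not given in the sources used here.

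The deposited tables give the position and width of each region, and 2 lists, named up and down, of the regions the authors found to differ with dose. They hold no value per sample, so no spread between replicates could be measured, no level could be compared, and sequencing depth is unknown. The reference dose for up and down is not stated, and the lists are called up and down without assigning either to a dose. Regions lay in or within 1000 bp of all 7 NK cell marker genes examined, with 4 to 9 regions per gene. They also lay at 4 of 5 T cell markers, 3 of 4 myeloid markers and 3 of 3 markers of other innate lymphoid cells. The T cell markers had 0 to 2 regions each, fewer than any of the NK cell markers. The myeloid markers, with 0 to 8, and the innate lymphoid markers, with 2 to 10, overlapped the NK cell range. The myeloid gene Itgam had 8 and the innate lymphoid gene Gata3 had 10, while Cd8a and Lyz2 had none.

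NK cells kill by releasing granules that hold perforin and granzymes, a family of serine proteases. Granzymes are made as inactive precursors, and cathepsin C (Ctsc) removes the peptide that keeps them inactive. Serglycin (Srgn) is the proteoglycan on which the granule proteins are stored. Serpins of clade B are inhibitors of the cytosol and nucleus that trap serine proteases. Among them, Serpinb9 is the mouse inhibitor of granzyme B and protects the killer cell from its own granzyme. The CTLA-2 proteins resemble the propeptide of cathepsin L and inhibit cysteine proteases of that kind. Cathepsin W (Ctsw) is a cysteine protease of NK cells and cytotoxic T cells.

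Of the 54 regions, 2 were in the down list and 0 in the up list. The down regions were 1 of the 2 regions of Ctla2a and 1 of the 2 regions of Ctla2b. The other 7 genes had 50 regions, all in neither list. The down share of the 54 regions was 3.70% (95% Wilson interval 1.02 to 12.5%), beside 1.40% of all regions. The up share was 0% (Wilson interval up to 6.64%), beside 4.21% of all regions. The limit that a count of 0 allows, taken as 3 counts of 54, is 5.56%. For the 50 regions of the other 7 genes the same limit is 6.0%, beside 5.61% of all regions in either list. The down and up shares of all regions both lie inside what the counts of the 9 genes allow. The intervals cover counting error only.

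The upstream stretch of each Ctla2 gene is shown because both lie in accessible regions that stayed out of the lists, next to the regions that were listed as down. The sequences are the 250 bases before the start site in RefSeq (GRCm38.p6), written 5′ to 3′. Capitals mark letters that match a motif searched for. The stretch of Ctla2a is at chr13:60936626-60936875, minus strand, and that of Ctla2b at chr13:60897448-60897697, minus strand.
Ctla2a: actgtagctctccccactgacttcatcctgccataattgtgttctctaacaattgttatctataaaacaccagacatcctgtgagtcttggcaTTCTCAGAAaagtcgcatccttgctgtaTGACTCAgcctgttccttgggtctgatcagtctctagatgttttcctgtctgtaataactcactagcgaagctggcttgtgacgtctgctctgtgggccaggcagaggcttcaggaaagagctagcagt
Ctla2b: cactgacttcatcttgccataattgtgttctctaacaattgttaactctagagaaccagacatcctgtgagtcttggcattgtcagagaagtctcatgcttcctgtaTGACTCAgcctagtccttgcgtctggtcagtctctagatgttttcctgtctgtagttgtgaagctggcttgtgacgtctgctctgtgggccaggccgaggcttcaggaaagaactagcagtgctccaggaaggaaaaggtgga

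Aligned over 228 bases, the stretches of Ctla2a and Ctla2b were identical at 208 (91.2%), with 8 bases in gaps. Both hold the AP-1 motif TGANTCA (searched as written on both strands, like all motifs here) as the same letters, TGACTCA. That motif ends 123 bases before the Ctla2a start and 137 bases before the Ctla2b start. Only Ctla2a holds the STAT motif TTCNNNGAA, as TTCTCAGAA at positions 94 to 102, counted from 1 at the 5′ end of the printed stretch. Ctla2b differs from Ctla2a there by C96G and A102G, numbered in the Ctla2a stretch. The AP-1 letters occur in 6.75% and the STAT letters in 7.02% of the same stretch of all 32851 start sites in the RefSeq table. A match is a description of letters and not a measured binding site.

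Ctla2a encodes the better studied of the CTLA-2 inhibitors. Its span on chromosome 13, from 60934155 to 60936625, overlapped both of its regions. The region in neither list was 637 bp wide (60936419 to 60937055) and contained the start site, reaching from 430 bp before it to 206 bp after it. RefSeq gives Ctla2a 2 nearby start sites, both inside this region, and distances are from the outer one. The down region was 941 bp wide (60934900 to 60935840) and lay in the body of the gene, from 785 to 1725 bp after the start. It was wider than 88.9% of all regions and covered 38.1% of the gene's span.

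Ctla2b, its paralogue, lies 36220 bp away on the same strand, from 60895351 to 60897934. Its region in neither list was 683 bp wide (60897244 to 60897926) and reached from 479 bp before the start site to 203 bp after it. Its down region was 669 bp wide (60895432 to 60896100) and lay from 1347 to 2015 bp after the start, 81 bp short of the gene's 3′ end. It was wider than 76.0% of all regions and covered 25.9% of the gene's span. Both genes therefore had the same arrangement, with an unlisted region over the start site and a down region in the body of the gene.

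**Figure D1:**
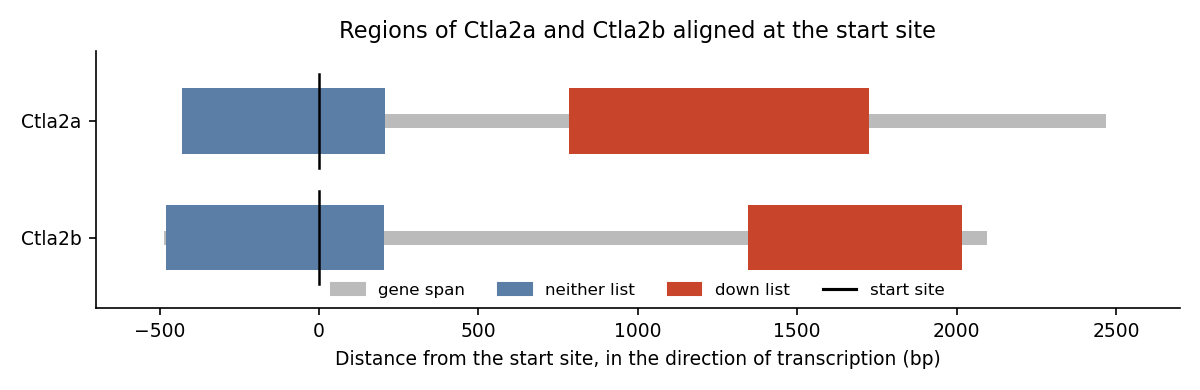
Regions of Ctla2a and Ctla2b placed by distance in bp from the start site (black line), with transcription running to the right. Blue boxes are regions in neither list, red boxes are regions in the down list and grey bars are gene spans. The start-site regions end 206 and 203 bp after the start, and the down regions begin 785 and 1347 bp after it.

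The start-site regions of the 2 genes ended at almost the same distance after the start, 206 and 203 bp. The down regions were placed less alike. That of Ctla2a began 578 bp beyond its start-site region and that of Ctla2b 1143 bp beyond. The down region of Ctla2a was also 272 bp wider than that of Ctla2b. The likeness of the genes was measured before their starts only, and the sequences of the down regions were not compared. How reads with several matches were treated is not given in the sources used here, and whether reads were shared between the down regions was not tested.

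The surroundings of the Ctla2 genes held 1 further listed region. It was a down region of 663 bp (60855091 to 60855753) within 4930486L24Rik, a neighbouring protein-coding gene, 39678 bp from the down region of Ctla2b. The 3 down regions lay within 80.8 kb, and the other accessible region in that stretch was the start-site region of Ctla2b. The next listed region on one side was 2373 kb away and that on the other side 2199 kb away, both in the up list and nearest to Rmi1 and Aopep. The median gap between neighbouring listed regions was 159 kb over all chromosomes. Within 150 kb of the Ctla2 genes there were 19 regions, of which 3 were down and 0 up, beside 1.40% and 4.21% of all regions. The 3 include the Ctla2 down regions around which this stretch was chosen. The unlisted ones included every region nearest to Ctsj, a cathepsin of the placenta, in that stretch.

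Both down regions lay within 1000 bp of an end of their gene, at 745 and 81 bp. Of the 15607 regions within 1000 bp of an end of a protein-coding gene, 0.609% were down and 1.33% were up. That class includes regions over start sites, and the Ctla2 down regions contain none. Of the 7435 regions at a gene end without a start site in the RefSeq table, 78 (1.05%) were down. Regions from 600 to 1000 bp wide, the width range of the Ctla2 regions, were down in 2.32% of 18247 cases. With that width and within 1000 bp of a gene end, start sites included, 33 of 5034 regions (0.656%) were down. Of the 3013 genes nearest to exactly 2 regions, 33 (1.10%) had a region in the down list. Ctla2a, Ctla2b and Ctsw were the 3 genes of the set with exactly 2 regions, and Ctsw had neither of its regions listed. These classes were set to fit the traits of the Ctla2 regions, so the Ctla2 genes cannot serve as an independent comparison with them. The shares describe the lists, and no test of the set was made.

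**Figure D2:**
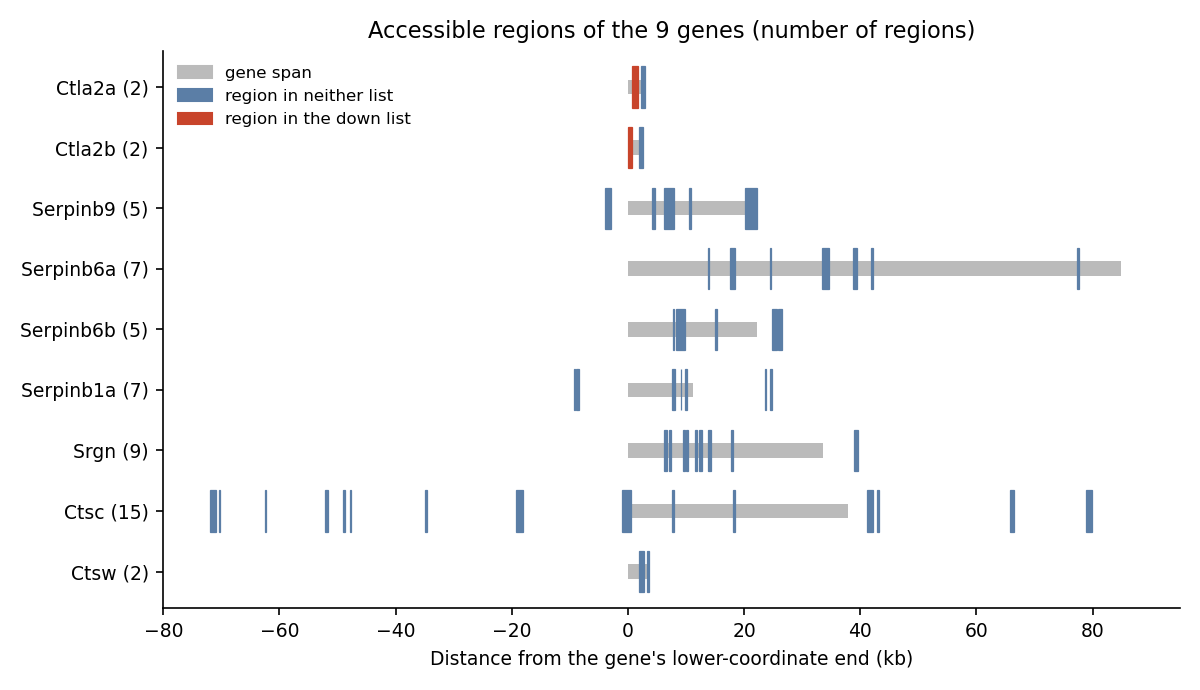
Accessible regions of the 9 genes, placed by distance in kb from the end of the gene with the lower coordinate. Grey bars are gene spans, blue boxes are regions in neither list, red boxes are down regions, and the number of regions stands after each name. A thin outline keeps narrow regions visible and makes some close neighbours touch. Ctsc has 15 regions spread over both flanks, and the red boxes occur at Ctla2a and Ctla2b only.

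The 9 genes differed in how many regions they had and where these lay. Ctsc had 15 regions, Srgn 9, Serpinb6a and Serpinb1a 7 each, Serpinb9 and Serpinb6b 5 each, and Ctla2a, Ctla2b and Ctsw 2 each. Over all 16498 genes that were nearest to any region, the median was 3 (interquartile range 2 to 6). Of the 54 regions, 34 overlapped their gene, 8 lay outside it within 10 kb and 12 lay farther away. Those 12 belonged to Ctsc (10) and Serpinb1a (2). Whether a region lay in an exon, an intron or an untranslated part was not annotated here.

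Density was taken with another count, of every region in the gene or within 10 kb of it, whichever gene was nearest, over the length of that stretch. By this count Ctsw had 6 regions and Ctsc 5, beside 2 and 15 by nearest gene. Ctsw had 2.54 regions per 10 kb, Srgn 2.05, Serpinb1a 1.61 and Serpinb9 1.47. Serpinb6b had 1.18, Serpinb6a 0.953, Ctla2a 0.890, Ctla2b 0.886 and Ctsc 0.864. The median over the 17034 protein-coding genes with such a region was 0.836 (interquartile range 0.466 to 1.32). Ctsw, Srgn, Serpinb1a and Serpinb9 were thus above the upper quartile. Ctsc, with 10 of its 15 nearest-gene regions beyond 10 kb and so left out here, was close to the median.

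Serpinb9, the granzyme B inhibitor, held the widest regions of the set. A region of 2073 bp (chromosome 13, 33017129 to 33019201) contained the higher-coordinate end of the gene, its 3′ end on the plus strand. A region of 1718 bp (33003296 to 33005013) contained the start site. They were wider than 99.8% and 99.2% of all regions. The other 3 were 999, 550 and 395 bp wide. Neither list held any of the 5, and the nearest region of a list was an up region 284 kb from the gene.

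Serpinb6b, a serpin also known as NK13, had a start-site region of 1646 bp (chromosome 13, 32965010 to 32966655). A region of 181 bp lay just before it and one of 451 bp lay farther inside the gene. Regions of 797 and 668 bp lay 2525 and 3561 bp beyond the gene's higher-coordinate end. Serpinb6b is followed on the chromosome by Serpinb9, on the same strand. None of these regions was listed.

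Serpinb6a, the relative of human SERPINB6, spans 84877 bp and had all 7 of its regions inside that span. RefSeq gives it 2 start sites. The inner one lay in a region of 836 bp (chromosome 13, 33935470 to 33936305). The outer one lay in a region of 1510 bp (34001932 to 34003441) that contains an end of Ripk1, which encodes a kinase of cell death signalling, and that the rule assigned to Ripk1. A second region inside the span, of 1401 bp (33964341 to 33965741), was assigned to Nqo2, a gene nested in Serpinb6a. The widest region assigned to Serpinb6a itself was 1223 bp (33951338 to 33952560). None of the 9 regions that overlap Serpinb6a was listed. An up region nearest to Tubb2a lay 85331 bp from the gene.

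Serpinb1a encodes an inhibitor of neutrophil elastase and related serine proteases. Its regions were 150 to 515 bp wide, with a median of 392 bp, beside 344 bp for Serpinb6a, 668 bp for Serpinb6b and 999 bp for Serpinb9. The widest (chromosome 13, 32833234 to 32833748) lay 8344 bp outside the gene. Of its 7 regions, 3 were inside the gene, and 2 were exactly 150 bp wide, the smallest width in the deposited table. No start site was used for Serpinb1a or Ctsw.

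**Figure D3:**
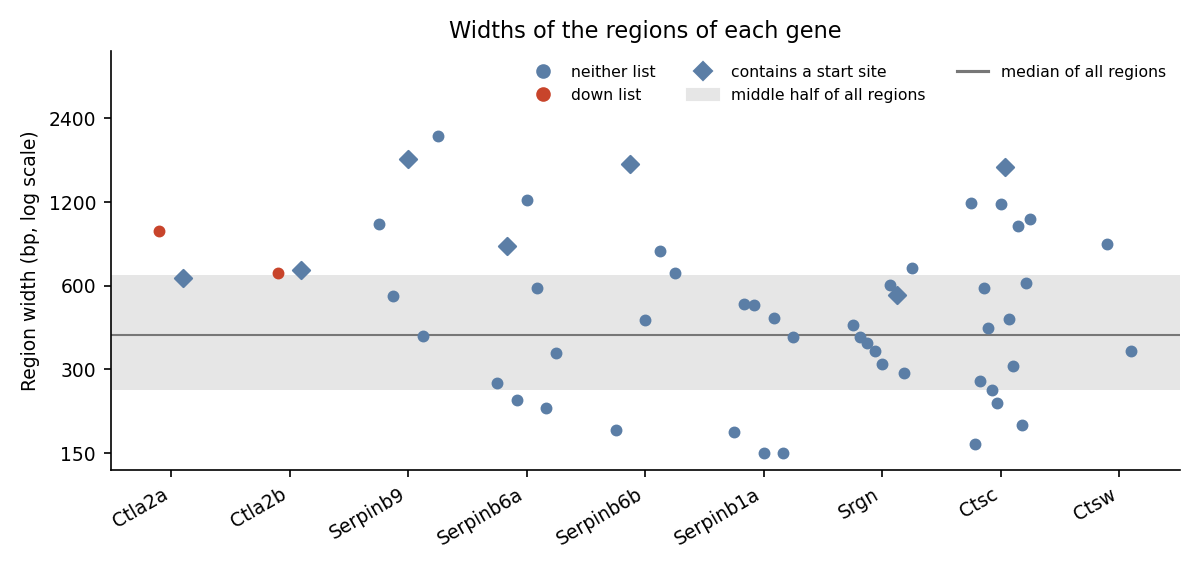
Width of each region in bp (log scale) by gene. Circles and diamonds are single regions, diamonds contain a RefSeq start site, red marks the down list, the grey line is the median of all regions (400 bp) and the band their interquartile range (252 to 653 bp). Both down regions lie above the band, below the widest regions of Serpinb9, Serpinb6b and Ctsc.

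The median width of the 54 regions was 486.5 bp (interquartile range 309 to 771 bp), beside 400 bp over all regions (252 to 653 bp). Of the 54, 8 (14.8%) were at least 1000 bp wide, beside 9.21% of all regions. Of the 10 RefSeq start sites of the 7 genes that have one in the table, 9 lay in an accessible region and 1 did not. These starts are not always the outer end of the gene. On the plus strand, Serpinb9 spans from 32997061 with its start at 33004541, and Serpinb6b from 32956811 with its start at 32965261. No region contained the outer 5′ end of either. The span of Ctla2b, on the minus strand, also reaches past its start at 60897447, to 60897934. The 7 regions of the set that contain a start were 556 to 1718 bp wide with a median of 836 bp, beside 945 bp (711 to 1206 bp) for all 10236 regions with a start site. None of the 7 was listed. Over all regions with a start site, 1.06% were up and 0.352% were down.

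Of the 10 start sites used, the one outside accessible chromatin was the outer one of Srgn, the serglycin gene. Its stretch and that of the inner start are shown because the 250 bases before the inner start were accessible throughout and none of those before the outer start were. The outer stretch is at chr10:62527446-62527695, minus strand, and the inner one at chr10:62507758-62508007, minus strand (RefSeq, GRCm38.p6).
Srgn, outer start: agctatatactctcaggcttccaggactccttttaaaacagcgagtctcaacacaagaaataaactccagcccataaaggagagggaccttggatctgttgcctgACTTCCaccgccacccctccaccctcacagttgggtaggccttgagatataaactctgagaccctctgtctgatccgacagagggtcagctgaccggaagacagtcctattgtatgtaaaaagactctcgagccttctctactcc
Srgn, inner start: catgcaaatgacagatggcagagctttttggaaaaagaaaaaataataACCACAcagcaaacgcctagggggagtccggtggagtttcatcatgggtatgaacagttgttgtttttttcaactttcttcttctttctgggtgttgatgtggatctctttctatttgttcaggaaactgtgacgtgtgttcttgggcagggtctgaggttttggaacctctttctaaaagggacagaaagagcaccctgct

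The outer stretch has the ETS motif GGAAGT in capitals (in reverse complement), which occurs in 19.7% of all 32851 stretches. The inner stretch has the RUNX motif TGTGGT, also in reverse complement, which occurs in 14.0% of them. The inner start lay in a region of 556 bp (chromosome 10, 62507648 to 62508203). With this one, 7 regions followed each other within 8.08 kb towards the gene's 3′ end, with gaps of 260 to 2016 bp and 3020 bp of summed width. A region of 292 bp lay between the starts. The widest of the 9, of 693 bp (62532686 to 62533378), lay 5241 bp upstream of the outer start. None of the regions of Srgn was listed, and the nearest listed region was an up region 281 kb away, nearest to Tet1.

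Ctsc, which activates the granzymes, had a start-site region of 1605 bp (chromosome 7, 88276942 to 88278546). The stretch before its start is shown because it held matches to 3 of the motifs. It is at chr7:88277835-88278084, plus strand (RefSeq, GRCm38.p6), and lay in the region throughout.
Ctsc: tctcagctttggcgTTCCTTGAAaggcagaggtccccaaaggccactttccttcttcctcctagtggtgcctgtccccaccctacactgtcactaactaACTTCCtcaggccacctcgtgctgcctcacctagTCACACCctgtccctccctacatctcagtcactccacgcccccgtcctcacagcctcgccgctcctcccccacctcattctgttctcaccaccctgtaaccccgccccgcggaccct

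In order from the 5′ end, the capitals mark the STAT motif, the ETS motif in reverse complement and the T-box letters TCACACC, which occur in 3.33% of all stretches. The longer T-box motif AGGTGTGA, which contains the reverse complement of TCACACC and occurs in 1.12% of stretches, had no match before any of the 10 starts. Beside Ctla2a and Ctsc, the outer stretch of Serpinb6a matched the STAT motif. The upstream stretches of Serpinb9, Serpinb6b and the inner start of Serpinb6a matched none of the motifs.

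Outside the gene, Ctsc had 8 regions upstream, from 18.1 to 70.9 kb away, and 4 downstream, from 3.39 to 41.0 kb away. Widths of at least 1000 bp were found at 70.9 kb (1188 bp) and 18.1 kb (1182 bp) upstream and at 41.0 kb (1046 bp) downstream. None of the 15 was listed. The nearest listed region was a down region 955 kb from the gene, nearest to Tmem135.

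Ctsw had a region of 847 bp (chromosome 19, 5466926 to 5467772) inside the gene and a region of 349 bp (5468371 to 5468719) over its higher-coordinate end. Counting regions of any nearest gene, 6 lay in Ctsw or within 10 kb of it, in a stretch crowded with other genes. Neither of its regions was listed, and the nearest listed region was an up region 523 kb away.

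The 4 serpins of the set belong to a cluster of 16 clade B serpin genes over 1161 kb of chromosome 13. The cluster span held 54 regions, of which 0 were in either list, beside 5.61% of all regions. A count of 0 among 54 allows a share of up to 5.56%, close to that background. The regions were unevenly placed. Counted by nearest gene, which takes in regions outside the cluster span and leaves out those inside it that were assigned to Nqo2 and Ripk1, Serpinb1a, Serpinb6b, Serpinb9 and Serpinb6a had 24 regions. The other 12 serpins had 30 by the same count, which belonged to Serpinb1c (10), Serpinb9b (10), Serpinb1b (8) and Serpinb6c (2). The remaining 8 serpins, from Serpinb9c to Serpinb6e, had none. They lay in a stretch of 785 kb without an accessible region, whereas the median gap between neighbouring regions elsewhere in the cluster was 3037 bp. The part that reads with several matches played in that stretch was not tested.

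**Figure D4:**
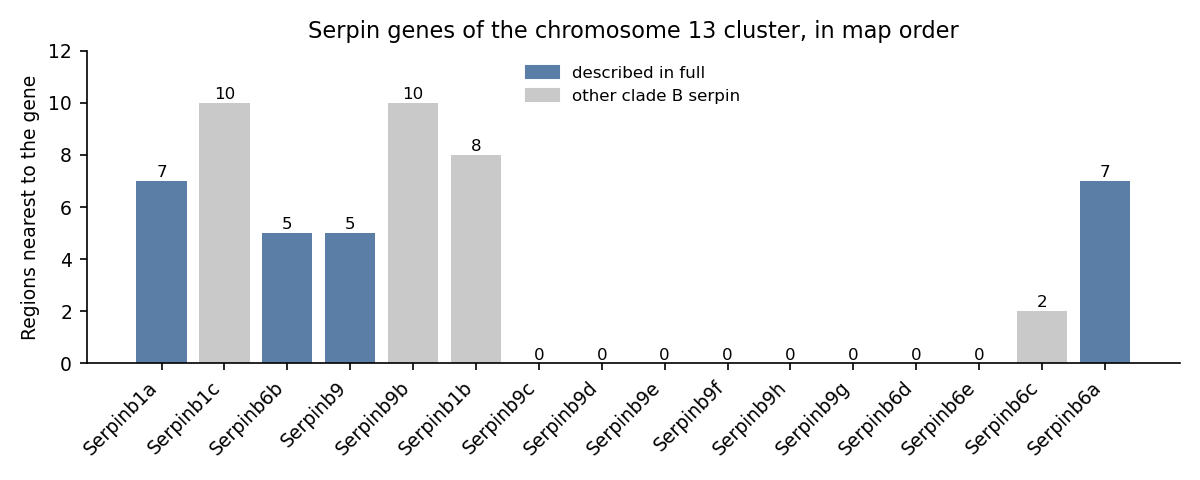
Number of accessible regions nearest to each serpin gene of the chromosome 13 cluster, in map order. Blue bars are the 4 serpins described in full and grey bars the other 12. Regions occur at both edges of the cluster, and the 8 genes from Serpinb9c to Serpinb6e have 0.

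Other genes of the granule pathway were counted in the same way. The 10 of 11 granzyme and perforin genes that had a region held 39, of which 3 were down, all at Gzma, and 1 was up, at Gzme. The 12 other lysosomal proteases and inhibitors had 54 regions, of which 2 were down and 4 up. Both of the down ones belonged to Cst7, where they were 2 of 6 regions. Cst7 encodes cystatin F, an inhibitor of cathepsin C. The up ones were 1 each at the cystatin genes Cst3 and Cstb and the protease genes Ctsb and Lgmn. Of the 15 genes of granule biogenesis and release, 14 had a region, and they held 131, with 3 down and 4 up. Of the 24 other clade B serpins, 13 had a region, and they held 49, with 1 down and 0 up.

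In shares, down regions were 7.69% (2.65 to 20.3%) for granzymes and perforin and 3.70% (1.02 to 12.5%) for the other lysosomal proteases. They were 2.29% (0.782 to 6.52%) for biogenesis and release and 2.04% (0.361 to 10.7%) for the other serpins, beside 1.40% of all regions. Only the interval of granzymes and perforin lies wholly above that share, and its 3 down regions are all at Gzma. Up regions were 2.56% (0.454 to 13.2%), 7.41% (2.92 to 17.6%), 3.05% (1.19 to 7.59%) and 0% (up to 7.27%) in the same order, beside 4.21% of all regions. Each interval overlapped that of the 9 genes described here in the same list, and the differences were not tested.

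**Figure D5:**
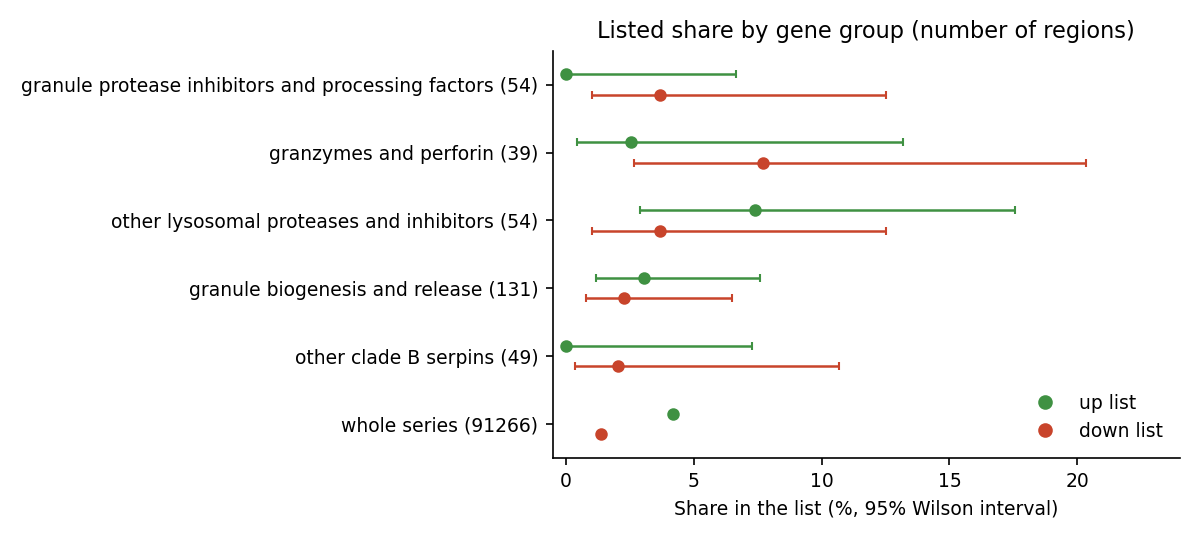
Share of regions in the authors' up list (green) and down list (red) for each gene group, in percent of the group's regions, with 95% Wilson intervals. The number of regions stands after each group, and the intervals of the 5 gene groups overlap one another in each list. The 9 genes have a down share of 3.70% and an up share of 0%.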

How the data were processed

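ATAC-seq regions of the series as a whole were analysed: 91266 regions with their width in bp, and the authors' deposited up (3845) and down (1275) lists, which are positions only. The submitters' processing notes name BWA, MACS2, ArchR, HOMER 4.11.1 and build mm10. Roles, pooling of replicates, test and threshold are not given in the sources used here. Starts of the full list were raised by 1, after which all 5120 listed regions were identical to one of it, and coordinates are 1-based. Genes and start sites came from RefSeq (GRCm38.p6, 21900 protein-coding genes). A region went to the nearest gene span, then to the nearer gene end. The assignment was tested on simulated regions. Python 3.11.15, pandas 2.3.3, scipy 1.17.1 and matplotlib 3.10.9 were used.

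No test was run: with 0 columns of values per sample, the planned dose comparison could not be made, and shares carry 95% Wilson intervals. All 9 genes are named, with coordinates for listed, widest and start-site regions. Genes of other lists are named where they have a listed region or adjoin the 9, but not all such genes are. The genes and lists were chosen with earlier results of these data known. Another assignment rule, a width filter, leaving out a gene and other overlaps were tried. A further list of cell type markers, beside the 4 reported, is not reported here.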

Additional observations from a re-analysis of the deposited data

How the results depend on the processing

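No paired analysis was possible because no file gives a value for single samples. For the same reason, other normalizations, count filters, leaving out a replicate and stricter thresholds were not run. Of 38 alternatives over 5 results, 36 stayed within the limits set: 1.5 times for a count and the 95% interval of the reported value for a share or a median. These limits are wide, and some alternatives could move a count little or not at all. All listed regions were identical to one of the full list, so the overlap settings had little room to differ. The width filter and leaving out Ctsc, the gene with the most regions, could not add a listed region. Ctsc had none to lose. The listed share of 3.70% ranged from 2.80% with the 50 kb rule to 6.25% among regions of at least the median width. The 54 regions became 36 when only the gene span was used, which is at the limit of 1.5 times. The 54 regions became 107 when every region within 50 kb of a gene was counted and 32 when regions narrower than the median were left out. These changes follow from the wider and the narrower choice. The count of up regions was 0 in all alternatives. The count of down regions was 2 in all but the 50 kb rule, where the region in 4930486L24Rik made it 3. The nearest start site rule could use 7 of the 9 genes. The small number of regions limits every share.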
